A study of Mus musculus with 2 samples.

Results

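The Krüppel-like factors (KLF), the specificity proteins (SP) and the ETS proteins are families of transcription factors, and 37 of their genes were followed in the mouse uterus on gestation day 2.5. The members were taken by gene symbol from the deposited table of 14678 genes, as every symbol of the form Klf with a number, Sp1 to Sp9, Elf1 to Elf5, Elk1 to Elk4, Etv1 to Etv6, Ets1, Ets2, Erg, Fli1, Ehf, Spdef or Gabpa. RefSeq lists 47 mouse genes with such a symbol. Of these, 13 KLF, 5 SP and 19 ETS genes had a row, and the other 10 (Erg, Etv2, Klf1, Klf8, Klf14, Klf17, Sp6, Sp7, Sp8 and Sp9) were not analysed here. The symbol rule uses no measured value.

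All females were double transgenic, VEGFtetO/tetO/beta-AKtg/wt. They carried tet operators in both copies of the VEGF promoter and a tetR-Krab repressor driven by the β-actin promoter, which is active in all tissues, so that VEGF was repressed in the whole animal and not in the uterus alone. Dox+ mice (VEGF-normal) ate chow with 200 mg/kg doxycycline, which releases the repressor. Dox- mice (VEGF-repression) were littermates on regular chow, from which doxycycline had been withdrawn several weeks before mating. Both groups were 9 to 10 weeks old, were mated with VEGFtetO/tetO males, and were collected on gestation day 2.5, before implantation. The effects of VEGF repression and of doxycycline itself cannot be told apart, since VEGF was repressed in the group without doxycycline and normal in the group with it. Total RNA of 3 uteri per group was pooled into 1 library. The comparison therefore has no replicate check, and every statement of a difference below concerns these 2 libraries.

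In digital gene expression (DGE) profiling, each transcript is read as a short tag and the tags of a gene are counted. The library sizes that the deposited values imply were 5985925 clean tags in Dox+ and 5844314 in Dox-. Of these, 74.1% and 72.2% were counted for a gene in the deposited table and are called assigned tags. A level is given as the copy number (tags of the gene) or as tags per 1000000 clean tags (TPM). TPM here carries no correction for transcript length, and levels were compared between libraries and not between genes. Each ratio is Dox- over Dox+ with an exact 95% counting interval, which covers counting error only. The members together had 4763 tags in Dox+ and 5715 in Dox-, or 0.107% and 0.135% of the assigned tags. Of these, 185 in Dox+ and 1083 in Dox- were tags of Elf3 alone. Vegfa, the targeted gene (NCBIM37 chromosome 17, 46153942 to 46169326), had 247 copies in Dox+ and 125 in Dox-, which was 1.93-fold lower (1.55 to 2.41).

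KLF and SP proteins bind GC-rich DNA, the GC box GGGCGG and the CACCC box, through zinc fingers at the end of the protein. The KLF proteins are grouped by their partners. Klf3, Klf8 and Klf12 recruit the corepressor CtBP, Klf9, Klf10, Klf11, Klf13, Klf14 and Klf16 recruit Sin3A, and Klf1, Klf2, Klf4, Klf5, Klf6 and Klf7 work mainly as activators. ETS proteins bind a GGAA core through a winged helix-turn-helix domain, and many are targets of growth factor signaling. In the uterus, Klf9 is known as a partner of the progesterone receptor, Klf5 is required in the epithelium for implantation, and Klf15 restrains epithelial proliferation under steroid hormones. Elf3, Elf5, Ehf and Spdef are ETS factors of epithelia, while Erg, Fli1 and Ets1 are prominent in endothelium.

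The promoters of 4 of the members with the clearest differences are shown, since 3 of these promoters held the GC box that the KLF and SP proteins bind. The sequences are from RefSeq on GRCm38.p6, a later build than the mm9 of the deposited table, and run 5′ to 3′ on the strand of the gene from 250 bases before to 50 bases after an annotated start. Capitals mark the GC box GGGCGG, the CACCC box, the ETS site CCGGAAGT and the E box CACGTG, each on either strand. The E box, which clock and Myc proteins bind, was added after the sequences were seen. The Elf3 promoter lies at chr1:135258423-135258722 (minus strand), that of Klf4 at chr4:55532426-55532725 (minus strand), that of Klf15 at chr6:90462326-90462625 (plus strand) and the upstream one of Sp3 at chr2:72980397-72980696 (minus strand).
Elf3: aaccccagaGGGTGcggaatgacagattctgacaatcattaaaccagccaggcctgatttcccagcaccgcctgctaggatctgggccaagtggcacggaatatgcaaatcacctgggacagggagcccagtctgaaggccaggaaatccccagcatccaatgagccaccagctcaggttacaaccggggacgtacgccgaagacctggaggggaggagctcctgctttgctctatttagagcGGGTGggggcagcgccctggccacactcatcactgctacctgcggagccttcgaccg
Klf4: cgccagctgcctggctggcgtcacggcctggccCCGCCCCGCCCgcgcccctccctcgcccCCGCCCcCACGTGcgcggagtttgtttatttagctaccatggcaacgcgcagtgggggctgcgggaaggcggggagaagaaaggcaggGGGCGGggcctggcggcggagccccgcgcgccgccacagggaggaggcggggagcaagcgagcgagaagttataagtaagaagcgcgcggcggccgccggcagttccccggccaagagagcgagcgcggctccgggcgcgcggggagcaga
Klf15: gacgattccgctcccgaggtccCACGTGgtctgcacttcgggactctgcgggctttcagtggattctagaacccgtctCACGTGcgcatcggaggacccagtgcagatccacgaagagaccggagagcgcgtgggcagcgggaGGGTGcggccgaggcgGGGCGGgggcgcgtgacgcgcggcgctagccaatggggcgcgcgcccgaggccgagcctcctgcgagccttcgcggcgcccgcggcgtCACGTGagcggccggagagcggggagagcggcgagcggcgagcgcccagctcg
Sp3: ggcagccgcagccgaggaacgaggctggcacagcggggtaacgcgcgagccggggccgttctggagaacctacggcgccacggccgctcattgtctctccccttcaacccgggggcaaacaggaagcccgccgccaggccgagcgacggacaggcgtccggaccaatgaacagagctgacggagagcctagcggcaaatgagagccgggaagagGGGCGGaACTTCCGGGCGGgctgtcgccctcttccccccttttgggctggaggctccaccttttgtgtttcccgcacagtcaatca

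The Elf3 promoter held 2 CACCC boxes and no GC box. The Klf4 promoter held 4 GC boxes and 1 E box, and the first 2 of its GC boxes share a base. The Klf15 promoter held 3 E boxes, 1 GC box and 1 CACCC box. In the upstream Sp3 promoter an ETS site overlapped the second of its 2 GC boxes. The downstream Sp3 promoter, whose sequence is not printed, held 5 GC boxes, 1 CACCC box and no ETS site. A promoter was at hand for 30 of the 37 members, 41 in all. Of these, 26 (63.4%) held a GC box, against 35.7% of all 32851 promoters and 59.4% of the 14732 promoters of genes with a row in the deposited table. A CACCC box stood in 70.7% of the members' promoters and 63.8% of those of genes with a row (57.5% of all), the ETS site in 4.88% and 6.97% (3.89% of all), and the E box in 19.5% and 9.54% (7.15% of all). The GC box is thus about as frequent here as in promoters of the other genes of the table. The E box share rests on 8 of the 41 promoters. Since this motif was added after sequences among them were seen, no excess is read from it. A match is a description of letters, not of a bound site.

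**Figure D1:**
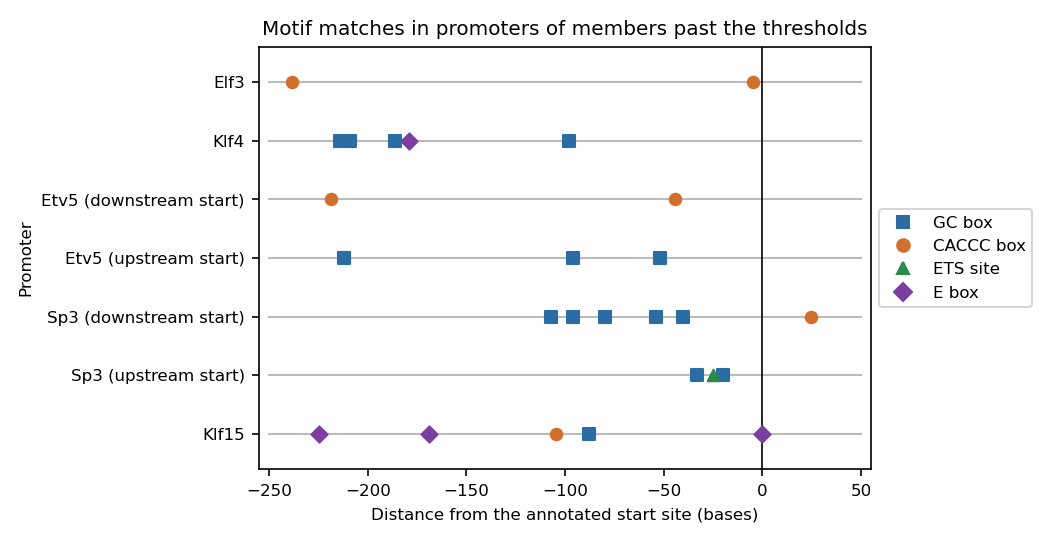
Matches to 4 motifs in the promoters of 5 of the 6 members past the thresholds (all but Klf10), by distance from the annotated start site in bases (x axis), 1 line per promoter and ordered by the ratio between the libraries, highest at the top. Klf4 carries 4 GC boxes upstream of its start, and Klf15 carries 3 E boxes, 1 of them at the start itself.

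In 16 members the copies of both libraries added up to 200 or more. These were compared by the Audic-Claverie test, in which the null is an equal share of tags in either library. A gene passed at a false discovery rate (FDR) below 0.05 over all genes and a fold change of at least 1.5. Elf3, Klf4, Etv5 and Sp3 were higher in Dox-, Klf15 and Klf10 were lower, and 10 members were neither. Over all 6547 genes with as many copies, 15.2% were called higher and 14.7% lower, against which the 4 and 2 of 16 members are read. The median log2 ratio was 0.13 over the 16 members and 0.03 over all genes tested. The median size of the change, without its sign, was 0.49 for the members and 0.38 for all genes. No excess of calls among the members is claimed from these counts, and the description turns to which members differed.

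**Figure D2:**
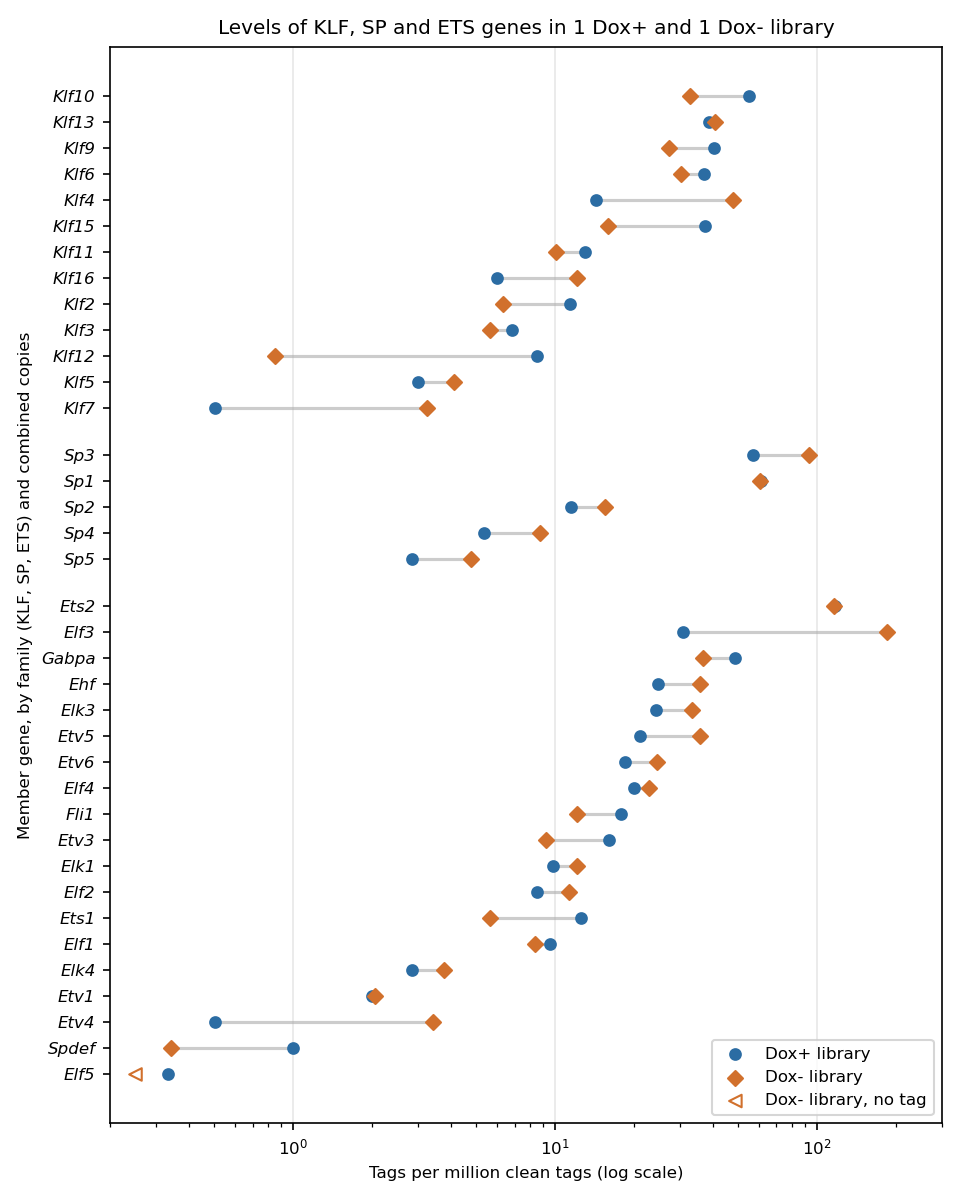
Level of each of the 37 members in the Dox+ library (circles) and the Dox- library (diamonds), in tags per 1000000 clean tags on a log axis, grouped by family. Each point is 1 library, so there is no error bar. The widest gaps among genes with many copies are those of Elf3 and Klf4, and Elf5 had no tag in Dox-.

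Among the 8 ETS genes with 200 or more combined copies, Elf3 had the largest difference. It encodes an epithelium-specific activator of the ESE subfamily (NCBIM37 chromosome 1, 137150151 to 137155049, minus strand). Elf3 had 185 copies (30.9 TPM) in Dox+ and 1083 copies (185 TPM) in Dox-. The Dox- level was 6.00-fold higher (5.13 to 7.05). Other annotated genes overlap Elf3 (Gm16606), Sp3, Gabpa, Elk1, Elk3, Elk4, Elf1, Elf2, Etv6, Fli1, Klf7, Klf9 and Sp2, and tags of overlapping genes may not be told apart at these members. Ehf, another epithelial factor of the same subfamily (chromosome 2, 103103590 to 103143435), had 148 copies in Dox+ and 208 in Dox-. Its ratio of 1.44 (1.16 to 1.79) lay above 1 by counting error but under the fold threshold. The ratio of Elf3 to Ehf within a library, which does not depend on library size, was 4.16 times as large in Dox- (3.17 to 5.46). Elf5, the third gene of the subfamily and 108 kb from Ehf on chromosome 2, had 2 copies in Dox+, while Dox- held no tag of it, too few to compare. Spdef, a factor of secretory epithelial cells, had 6 and 2 copies. The epithelial subfamily therefore did not move as 1 block, and most of its difference was in Elf3.

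Epithelial marker genes were also unequal. Of 15 listed markers, 12 had enough copies, 5 were called higher in Dox- and 2 lower, with a median log2 ratio of 0.42. Their levels summed to 1438 TPM in Dox+ and to 1904 TPM in Dox-, and no marker was at 0 in either library. The general epithelial keratins Krt8 and Krt18 had ratios of 1.14 and 1.30, and Cdh1, the epithelial cadherin, had 1.32. Krt7 was 3.43-fold higher (2.90 to 4.08) and the mucin Muc1 2.56-fold higher (2.21 to 2.97), while the tight junction gene Cldn3 was 2.93-fold lower. The ratios of the 15 markers ran from 0.341 (Cldn3) to 3.43 (Krt7), and that of Elf3 was 6.00. In whole uterus, more cells of a type and more RNA per cell cannot be told apart, and the part of the epithelial share in the Elf3 and Ehf values was not tested.

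In the PEA3 subfamily, whose genes are induced by FGF signaling, Etv5 was higher in Dox-. Etv5 (chromosome 16, 22381382 to 22439792, minus strand) had 126 copies (21.0 TPM) in Dox+ and 208 (35.6 TPM) in Dox-, which was 1.69-fold higher (1.35 to 2.13). Etv4 had 3 copies in Dox+ and 20 in Dox-, a ratio of 6.83 with the wide interval of 2.03 to 35.9. Because 3 copies is the floor used for the calls, this fold is read as a bound. Etv1 had 12 copies in each library. The ratio of Etv4 to Etv1 was 6.39 times as large in Dox- (1.35 to 42.5) and rests on the same 3 copies. That of Etv5 to Etv1, at 1.65 (0.655 to 4.15), could not be told from 1.

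Ets1 and Ets2, the founding pair of the family, were unequal. Ets2 (chromosome 16, 95923682 to 95942658) had 700 copies in Dox+ and 678 in Dox-, a ratio of 0.992 (0.891 to 1.10). Ets1 had 75 copies in Dox+ and 33 in Dox-, which was 2.22-fold lower (1.46 to 3.45). The ratio of Ets2 to Ets1 was 2.20 times as large in Dox- (1.42 to 3.47). Fli1, an endothelial and blood cell factor that lies 94.8 kb from Ets1 on chromosome 9, had 107 copies in Dox+ and 71 in Dox-, or 1.47-fold lower (1.08 to 2.02). Ets1 lay past the fold threshold and Fli1 just under it, and both were below the copy number filter.

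Most endothelial markers with enough copies were lower in the same library. Of 12 listed, 5 had enough copies and 4 of them were called lower in Dox-, with a median log2 ratio of -0.83. The endothelial cadherin Cdh5 was 2.02-fold lower, Tie1, a receptor of the angiopoietin system, 1.86-fold, and Egfl7 1.78-fold, while Pecam1 had 243 copies in Dox+ and 253 in Dox-. Together the 12 markers had 294 TPM in Dox+ against 189 TPM in Dox-, with none at 0. The part of the endothelial share in the values of Ets1, Fli1 and Klf2 was not tested.

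Of the remaining ETS genes, Etv3 alone passed the FDR and the fold change, below the copy number filter. Gabpa, which drives mitochondrial and housekeeping genes as a complex with a Gabpb subunit, had 290 copies in Dox+ and 215 in Dox-, 1.32-fold lower (1.10 to 1.58). The ternary complex factors, which act with serum response factor, included Elk3 with 145 and 194 copies (ratio 1.37, 1.10 to 1.71), Elk1 with 59 and 71, and Elk4 with 17 and 22. No pair of these 3 could be told apart in its ratio. The repressor Etv6 had 111 and 143 copies, and the repressor Etv3 96 and 54, so that the ratio of Etv6 to Etv3 was 2.29 times as large in Dox- (1.48 to 3.55). In the ELF subfamily, Elf4 had 120 and 133 copies, Elf2 51 and 66, and Elf1 57 and 49, and each interval held 1.

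**Figure D3:**
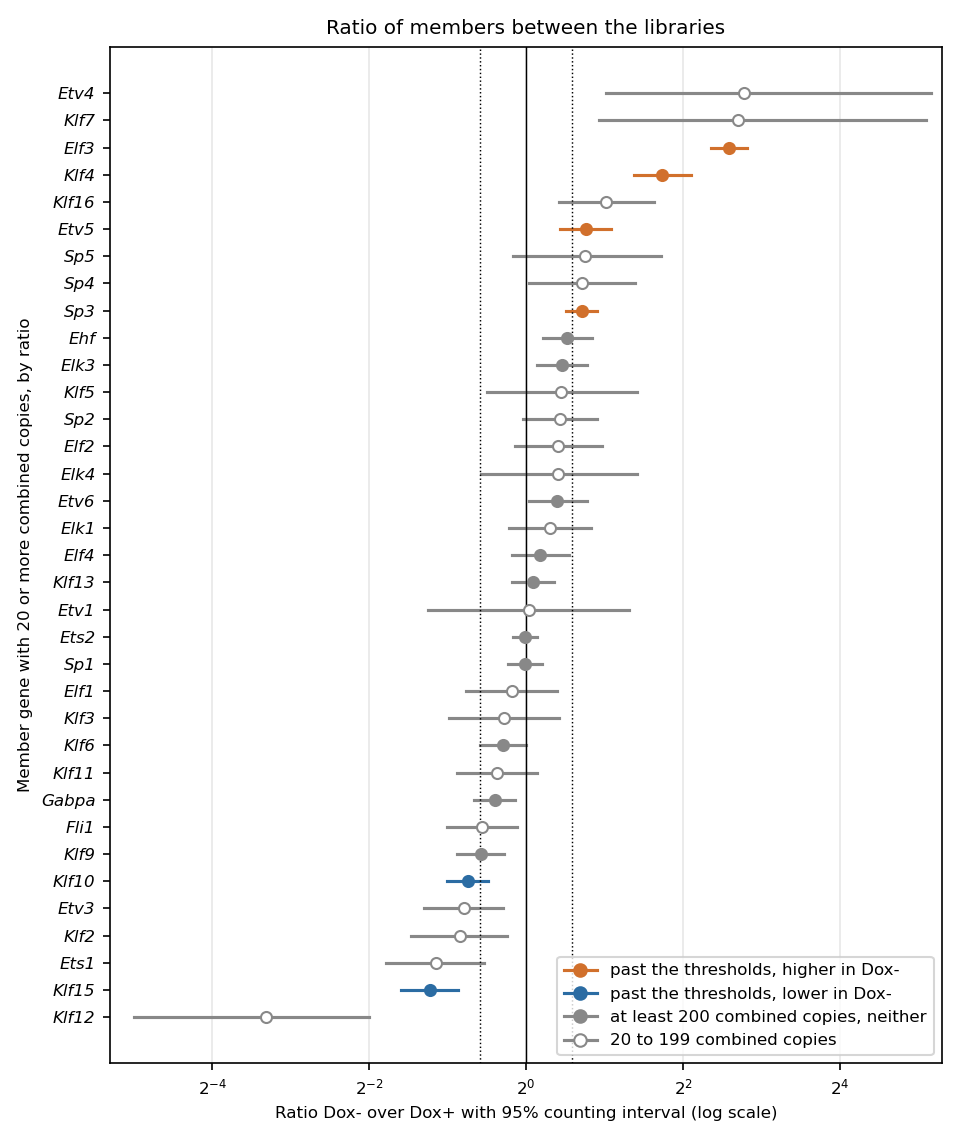
Ratio of Dox- over Dox+ for the 35 members with 20 or more combined copies, on a log axis, with 95% counting intervals as bars. Filled points have at least 200 combined copies, open points have fewer, the solid line marks 1 and the dotted lines a 1.5-fold change. Elf3 at 6.00 and Klf4 at 3.32 stand above the other filled points, and Klf15 stands lowest among them.

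Among the KLF genes that act as activators, Klf4 was the one called. Klf4 (chromosome 4, 55540013 to 55545347, minus strand) is known as a factor of epithelial differentiation and of pluripotency. It had 86 copies (14.4 TPM) in Dox+ and 279 (47.7 TPM) in Dox-, which was 3.32-fold higher (2.60 to 4.28). Klf6, a widely expressed gene induced by stress and growth factors, had 221 copies in Dox+ and 176 in Dox-, with an interval of its ratio from 0.665 to 0.999. Klf2, which flow induces in endothelium, had 68 and 37 copies, or 1.79-fold lower (1.19 to 2.76). The ratio of Klf4 to Klf6 was 4.07 times as large in Dox- (2.95 to 5.64) and that of Klf4 to Klf2 5.93 times (3.64 to 9.80). Klf5, the factor needed for implantation, had 18 and 24 copies, and its interval of 0.711 to 2.67 allows a difference in either direction. Klf7 had 3 and 19 copies, a ratio of 6.49 (1.91 to 34.2), which is read as a bound because 3 copies is the floor.

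Klf15 and Klf10 were the KLF genes called lower. Klf15 (chromosome 6, 90412570 to 90425232, plus strand) had 223 copies (37.3 TPM) in Dox+ and 93 (15.9 TPM) in Dox-, 2.34-fold lower (1.83 to 3.02). Klf10 (chromosome 15, 38221219 to 38230464, minus strand), an early target of TGFβ, had 328 copies (54.8 TPM) in Dox+ and 191 (32.7 TPM) in Dox-, 1.68-fold lower (1.40 to 2.01).

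In the group that recruits Sin3A, to which Klf10 belongs, Klf9 lay just outside the fold threshold. Klf9 (chromosome 19, 23215716 to 23241401) had 243 copies in Dox+ and 159 in Dox-, 1.49-fold lower (1.22 to 1.83), and it passed when the libraries were scaled by TMM or by the median ratio. The ratios of Klf9 and Klf10 could not be told apart, since one was 1.12 times the other (0.852 to 1.48). Klf13, a close relative of Klf9, had 231 and 239 copies, a ratio of 1.06 (0.881 to 1.28). The ratio of Klf13 to Klf9 was 1.58 times as large in Dox- (1.20 to 2.09), so that these related genes did not share a difference. Klf11 had 78 and 59 copies. Klf16 had 36 copies in Dox+ and 71 in Dox-, a ratio of 2.02 (1.33 to 3.11).

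Both genes of the CtBP group had few copies. Klf12, a repressor, had 51 copies in Dox+ and 5 in Dox-, which was 9.96-fold lower with an interval of 4.0 to 32.0. Klf3 had 41 and 33 copies. The ratio of Klf3 to Klf12 was 8.08 times as large in Dox- (2.79 to 28.9).

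Sp1 and Sp3 bind the same GC box, and Sp3 can act as an activator or a repressor there. Sp3 (chromosome 2, 72774484 to 72818503, minus strand) had 342 copies (57.1 TPM) in Dox+ and 545 (93.3 TPM) in Dox-, which was 1.63-fold higher (1.42 to 1.87). Sp1 had 366 copies in Dox+ and 353 in Dox-, a ratio of 0.988 (0.851 to 1.15). The ratio of Sp3 to Sp1 was 1.65 times as large in Dox- (1.35 to 2.03). Sp4 had 32 and 51 copies, with the same ratio of 1.63 but a wider interval (1.03 to 2.62). Sp2 had 69 and 91 copies and Sp5, a target of WNT signaling, 17 and 28, and both intervals held 1.

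Of the 21 members with fewer than 200 combined copies, 19 had 20 or more. Without the copy number filter, the FDR and the fold change were passed by Klf16, Klf7 and Etv4, which were higher in Dox-, and by Klf12, Ets1, Klf2 and Etv3, which were lower. These 3 and 4 of 19 compare with 16.8% and 16.7% of the 5532 genes in this range of copies. The other 12 were not called, and the interval of each of these 12 reached a 1.5-fold difference in at least 1 direction.

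As sums, the 13 KLF genes had 1627 copies in Dox+ and 1385 in Dox-, a ratio of 0.872 (0.811 to 0.937). The 5 SP genes had 826 and 1068, a ratio of 1.32 (1.21 to 1.45), and the 19 ETS genes 2310 and 3262, a ratio of 1.45 (1.37 to 1.53). The ETS sum rested on Elf3. Without it, 2125 and 2179 copies remained, with a ratio of 1.05 (0.989 to 1.12). Without Klf4, the KLF gene called higher, the KLF sum had a ratio of 0.735 (0.680 to 0.795). Leaving out a gene called higher lowers the ratio, so no broad KLF decrease is read from it. Of the KLF copies, 328 in Dox+ and 191 in Dox- were those of Klf10, and 223 and 93 those of Klf15, the KLF genes called lower. Of the SP copies, 342 in Dox+ and 545 in Dox- were those of Sp3, and 366 and 353 those of Sp1. Within the subfamilies, 39 pairs of members with 20 or more combined copies were set against each other. The interval of 21 pairs excluded 1, without adjustment for their number. The member with the larger ratio was put first in each pair, and many pairs share a gene. Pairs of other genes were not counted, so no excess among these pairs is claimed.

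Cofactors were followed as fixed lists. Of 16 listed partners of the KLF and SP proteins, 13 had enough copies, and none passed the thresholds in either direction with libraries scaled by clean tags, at a median log2 ratio of 0.003. Ctbp1, the corepressor of the CtBP group, had 2304 copies in Dox+ and 1864 in Dox-, Sin3b 701 and 711, and the acetyltransferase gene Ep300 818 and 634. Of 18 partners and regulators of ETS proteins with a row, 11 had enough copies and 1 was called higher. This was Gabpb2, a subunit that joins Gabpa, with 123 and 202 copies, 1.68-fold higher (1.34 to 2.12), while Gabpb1 had 95 and 115 and Gabpa itself had the lower level given above. Srf, the partner of the Elk proteins, had 595 and 418 copies. Runx1, which binds DNA together with Ets1, had 20 copies in Dox+ and 74 in Dox-, a ratio of 3.79 (2.29 to 6.56), under the copy number filter. Fbxw7, a ubiquitin ligase subunit, had 35 and 11 copies, or 3.11-fold lower (1.54 to 6.78), under the same filter.

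Markers of other cell types were counted in the same way. All 10 smooth muscle markers had enough copies, with 5 called lower, none higher and a median log2 ratio of -0.65, and together they had 9653 TPM in Dox+ against 6675 TPM in Dox-. Of the 10 stromal markers 2 were called higher and 4 lower (3 and 3 with libraries scaled by assigned tags). Their median was -0.25 and their sums were 9807 and 11731 TPM. Col1a2 was 2.06-fold higher and Lum 1.84-fold higher. The collagen gene Col1a1, with the most copies of the list (23017 and 33696), lay just under the fold threshold. Nearly all of the difference between the stromal sums was that of Col1a1. The stromal regulator Hand2 was 6.73-fold lower, Hoxa11 3.20-fold, Hoxa10 2.87-fold and Vim 1.52-fold. The 12 leukocyte markers together had 195 TPM in Dox+ against 271 TPM in Dox-, with 1 of 5 called higher. No marker of these lists was at 0. Since all members were measured in whole uterus, the part of these shares in the members' values was not tested.

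**Figure D4:**
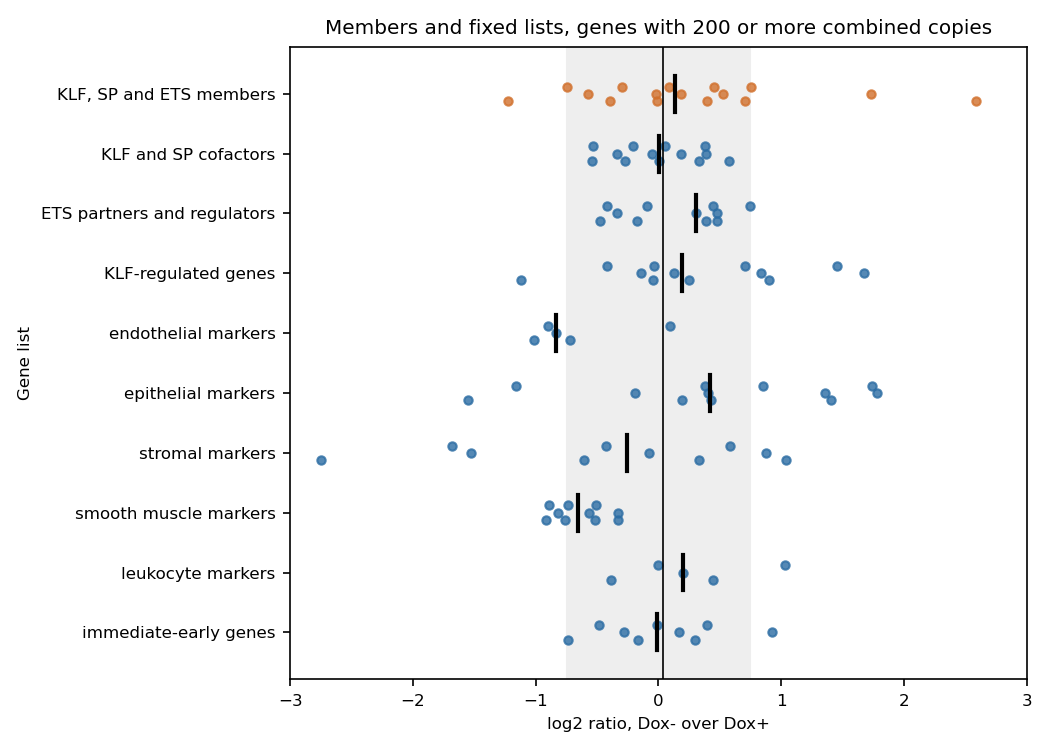
The log2 ratio of Dox- over Dox+ (x axis) of genes with at least 200 combined copies, for the members and for fixed lists of cofactors, regulated genes and cell type markers (y axis). Each point is a gene, the short bar is the median of the list, the line is the median of all 6547 genes and the band runs from their 10th to their 90th percentile, -0.75 to 0.75. The endothelial and smooth muscle medians, -0.83 and -0.65, lie left of the line, and the members spread from -1.23 (Klf15) to 2.58 (Elf3).

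The calls depend on what is assumed of the variation between pools of uteri, which 1 library per condition cannot show. By edgeR's negative binomial exact test with an assumed coefficient of variation of 0.2, Elf3 and Klf4 were called and Etv5, Sp3, Klf15 and Klf10 were not, and with 0.4 no member was called. Over all 6547 genes, 2.25% were called higher and 2.66% lower at 0.2, and 0.244% and 0.26% at 0.4.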

How the data were processed

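Pooled RNA of 3 uteri was sequenced in 1 library per group. The authors removed adaptor-only tags, low quality tags and tags seen once, and matched the rest to mm9 reference mRNAs. The deposited counts are unambiguous tags per gene without normalization. The deposited TPM is the count per 1000000 clean tags, with 0.01 for a count of 0. The submitters' processing notes name CASAVA, the enzyme and aligner are not given in the sources used here, and the labels mention fragmented mRNA where the paper describes tags. The authors searched sense and antisense tags, and whether antisense tags enter the gene counts is not given in the sources used here. The deposited counts sum to fewer tags than the paper reports as mapped to only 1 gene, in both libraries. Columns of the authors' own ratios, P-values and FDR were not used.

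Library sizes were recovered from counts and TPM. The two-sided Audic-Claverie test with Benjamini-Hochberg adjustment over 14678 genes compares the libraries, not the conditions. Genes whose copies summed to 200 or more were called when the FDR was under 0.05 and the change 1.5-fold or larger. Single-gene intervals are Clopper-Pearson (95%), computed on how the tags of a gene divide between the libraries, and pairs have conditional exact intervals of the odds ratio. Copies of 3 or fewer were set to 3 for the calls, and the fold is then a bound. Gene positions are from GENCODE on NCBIM37 (mm9).

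Members and lists were chosen with earlier results of these data known. By rule, members past the thresholds are given in full and the other members by copies, and of each list the 3 genes with the most copies and any past a 2-fold change may be named. List genes named beyond that rule were chosen after their values were seen. Alternatives were other scalings (TMM, median ratio, assigned tags), copy filters, Fisher's exact test, edgeR's negative binomial exact test with assumed variation, other thresholds and a pseudocount of 1. Scripts were tested on simulated data. Python 3.11.15, scipy 1.17.1, R 4.3.3 and edgeR 4.0.16 were used.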

Additional observations from a re-analysis of the deposited data

How the results depend on the processing

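Against 4 members called higher and 2 lower of 16, looser copy number filters added members with few copies. A combined copy number of at least 100 gave 5 and 5 of 26 members, against 16.3% and 15.4% of the genes tested. A minimum of 20 gave 7 and 6 of 35, against 15.9% and 15.6%. No filter gave 7 and 6 of 37, against 13.9% and 14.2%. A fold change of at least 2 left 2 higher (Elf3 and Klf4) and 1 lower (Klf15), against 4.61% and 5.62% of all 6547 genes. An assumed coefficient of variation of 0.2 gave 2 and 0, against 2.25% and 2.66% of these genes. With 0.4 the calls were 0 and 0, against 0.244% and 0.26%. At 0.1, and with Fisher's exact test, an FDR below 0.001 or scaling by assigned tags, the same 6 members were called. TMM and median-ratio scaling added Klf9, at log2 ratios of -0.60 and -0.61, and an absolute log2 ratio above 0.5 added Klf9 and Ehf. Scaling by assigned tags turned the sign of Ets2 to 0.027 and of Sp1 to 0.021, both close to 0, and no other tested member changed direction under the scalings or a pseudocount of 1. No paired analysis was possible because each condition had 1 library. At this depth 3 copies equal 0.501 TPM (Dox+) or 0.513 TPM (Dox-). Members with fewer than 200 combined copies could have differed without being called.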

Other observations

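Among genes reported to respond to KLF proteins, more were called higher in Dox- than lower. Of 18 with a row, 12 had enough copies, with 5 called higher in Dox-, 1 lower and a median log2 ratio of 0.19. Over all 6547 genes the shares were 15.2% and 14.7%, and an excess in this short list was not tested. Sod3, an extracellular superoxide dismutase, had 62 copies in Dox+ and 193 in Dox-, 3.19-fold higher (2.38 to 4.32). Cebpb, a regulator of decidualization, had 258 and 692 copies, 2.75-fold higher (2.38 to 3.18). The progesterone receptor gene Pgr had 687 and 1251 copies, 1.87-fold higher, and the estrogen receptor gene Esr1 165 and 262, 1.63-fold higher. The DNA methyltransferase gene Dnmt1 had 230 and 400 copies, 1.78-fold higher. Txnip, which restrains glucose uptake, had 1586 and 712 copies, 2.17-fold lower. Mcm2, a replication licensing gene named as a target of Klf15, had 314 and 335 copies with an interval of the ratio from 0.934 to 1.28.

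Several KLF genes are induced as immediate-early genes, so a list of these was followed. Of 18 with a row, 9 had enough copies, with 1 called higher (Junb, 121 and 224 copies), 1 lower (Zfp36, 215 and 126 copies) and a median log2 ratio of -0.01. Fos had 25 copies in Dox+ and 116 in Dox-, a ratio of 4.75 (3.06 to 7.64), while Egr1 had 227 and 249 and Jun 722 and 698. Like Fos, Ier3 with 53 and 135 copies (ratio 2.61, 1.89 to 3.66) and Ctgf with 47 and 109 (2.38, 1.67 to 3.42) were under the copy number filter. No listed immediate-early gene under the filter had an interval wholly below 1. Genes that ETS proteins regulate in endothelium, a list that shares most of its genes with the endothelial markers, included 4 called lower of 6 with enough copies. The median was -0.78. The 4 were Cdh5, Egfl7, Tie1 and Cldn5, the same 4 called among the endothelial markers, so this is not a separate observation. Vwf, which is not among those markers, had 177 copies in Dox+ and 148 in Dox- and was not called.

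ETS genes that the symbol rule leaves out were also in the table. Erf, a repressor that growth factor signaling inactivates, had 258 and 189 copies, Sfpi1, the myeloid factor also called Spi1, had 22 and 57, a ratio of 2.65 (1.60 to 4.56), and Spib had 4 and 8. None of 5 erythroid genes had enough copies. The hemoglobin gene Hba-a1 had 26 copies in Dox+ and 114 in Dox-, and it shares sequence with Hba-a2, which had 19 and 82. Alas2, another of the 5, went the other way, with 21 copies in Dox+ and 9 in Dox-. Hbb-b2 had 0 and 3 copies and Epor 2 and 0, too few to compare.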
